A study of Mus musculus with 2 samples.

Results

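The 5 genes described here, Pvalb, Calb1, Calb2, S100a1 and S100b, encode EF-hand calcium-binding proteins and were taken by gene symbol from the deposited gene tables. Each symbol stood for 1 gene in both libraries, so the group makes up 5 of 32285 genes. They were followed by single-cell RNA sequencing in the cochlea of mouse embryos at E16.5, in 1 library of wild-type embryos and 1 library of Emx2Cre;Ptch1f/f embryos, called the mutant below. Both were on a mixed 129/SvEv and C57BL/6N background, and each suspension was made from 8 cochleae. Ptch1 encodes the receptor that holds Hedgehog signalling off when no ligand is bound. In the mutant its floxed alleles are meant to be deleted wherever the Emx2 driver has expressed Cre, so the deletion is not expected in every cell of the cochlea. With 1 library per genotype there was no replicate check and no test. All 95% intervals below are exact Poisson or Clopper-Pearson intervals and cover counting error only.

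An EF-hand is a helix-loop-helix fold whose loop binds a calcium ion. Parvalbumin (Pvalb), calbindin (Calb1) and calretinin (Calb2) are best known as diffusible calcium buffers, and in the inner ear all 3 are used to mark hair cells and spiral ganglion neurons. S100A1 and S100B form dimers that bind partner proteins once loaded with calcium, and S100B is a common marker of Schwann cells and other glia. Hair cells turn sound into calcium entry and transmitter release, spiral ganglion neurons carry that signal to the brain, and the medial epithelium (Kolliker's organ) secretes much of the tectorial membrane before hearing starts.

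Sequencing gave 61130806 UMIs (unique molecular identifiers, which count captured transcripts) over 6500 wild-type barcodes and 100135532 UMIs over 12326 mutant barcodes. Filters left 6108 and 8670 of them, and 17 barcode sequences occurred in both sets. Clusters were named from marker genes and are neuron-like, hair-cell-like and so on, written without the suffix below. Neurons numbered 350 wild-type and 68 mutant barcodes, and medial epithelium 480 and 586. There were 436 and 450 glia, and 3148 and 5615 barcodes of mesenchyme. Hair cells were 124 wild-type barcodes against 2 in the mutant, so no genotype comparison was made in them. No mutant cluster was named supporting cell, against 89 wild-type barcodes, and lateral epithelium had 165 wild-type barcodes and 1 in the mutant. A sub-cluster of 8 wild-type and 206 mutant barcodes stayed unnamed, because its lateral (0.549) and supporting cell (0.51) marker scores were close. With no margin required between names it was called lateral epithelium. At finer clustering, a sub-cluster with 172 mutant barcodes was named supporting cell. These counts thus do not show that either type was missing from the mutant. All 9 neuron markers stood at 10 CPM (CPM scales the UMIs of a gene by all UMIs of the class) or more in neurons of both libraries, as did all 9 medial markers in medial epithelium and all 7 glial markers in glia. All 12 hair cell markers did so in wild-type hair cells. Ptch1 itself stood at 41.2 CPM in wild-type and 135 CPM in mutant medial epithelium, and the Hedgehog target Gli1 at 0.176 and 11.9 CPM. Neither gene rose in this way in the other compared classes. Gli1 had 0.952 and 0.615 CPM in neurons, 4.29 and 3.33 CPM in glia, and 5.42 and 5.23 CPM in mesenchyme. For Ptch1 the values were 31.0 and 29.5 CPM in neurons, 97.3 and 64.2 CPM in glia, and 20.2 and 22.4 CPM in mesenchyme. The 3′ tags counted here need not lie in the floxed exons, so the Ptch1 level does not check the deletion.

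Many barcodes carried transcripts of other lineages. In neurons 67.4% of wild-type and 2.94% of mutant barcodes had over 5 UMIs per 10000 from genes of other lineages, and are called mixed below. The shares were 88.8% and 76.5% in medial epithelium, 60.8% and 64.9% in glia, 1.05% and 3.08% in mesenchyme, and 86.3% in wild-type hair cells. Dcn and Lum, counted among those genes, stood at 671 and 630 CPM in wild-type medial epithelium, above the 471 and 193 CPM of wild-type mesenchyme. In the mutant they stood at 386 and 423 CPM in medial epithelium, against 283 and 102 CPM in mesenchyme. The label mixed thus does not by itself show another lineage in medial epithelium. With both genes left out of the count, 427 of 480 wild-type and 576 of 586 mutant medial barcodes passed. Haemoglobin transcripts summed to 2901 CPM in wild-type and 185 CPM in mutant neurons, and to 7265 CPM in hair cells. Values without such barcodes are given beside the main results in neurons, hair cells and medial epithelium. The median barcode depth of the neurons was 5903 UMIs for wild-type and 22941.5 for mutant barcodes, so shares of barcodes with a UMI are given after thinning every barcode to 2000 UMIs.

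**Figure D1:**
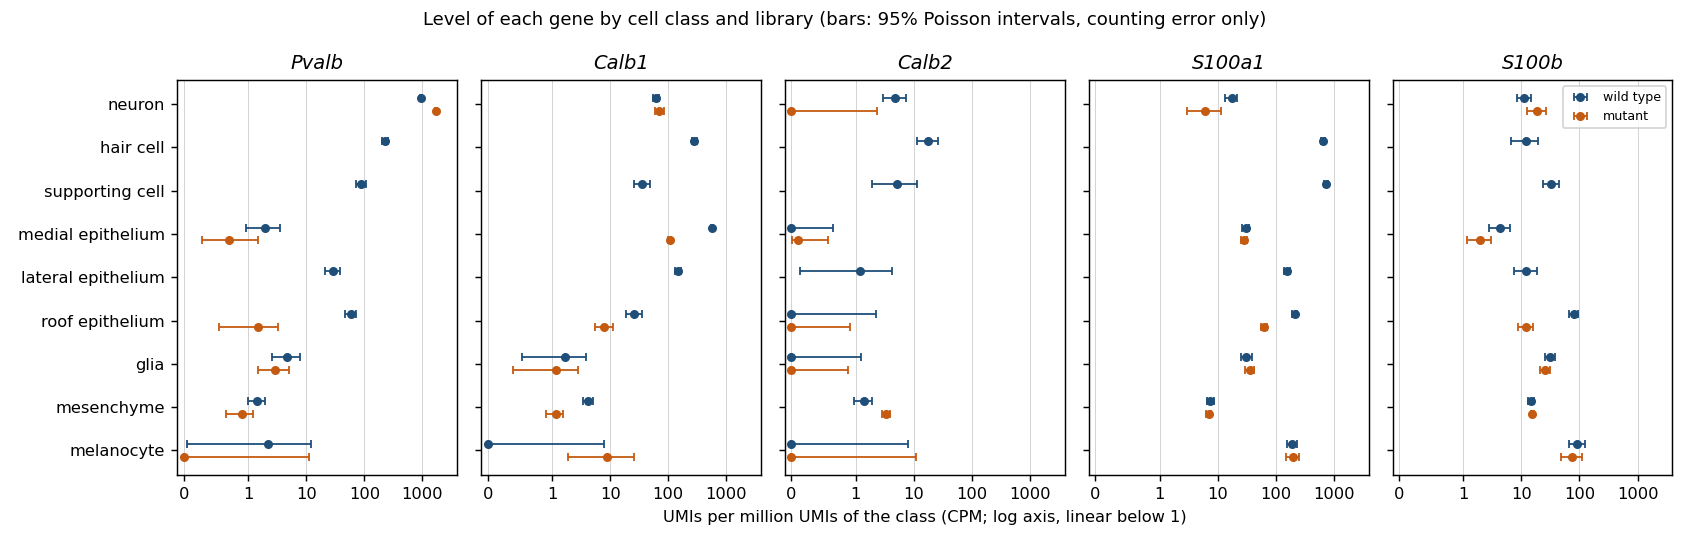
Level of each gene (CPM, log axis that is linear below 1) in 9 named classes of the wild-type (blue) and mutant (orange) library, with 95% Poisson intervals. Pvalb is highest in neurons of both libraries, Calb1 in medial epithelium of both, and S100a1 in wild-type supporting cells and hair cells; classes with under 20 barcodes in a library have no point.

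Each gene had its own leading class in the wild type. Pvalb was highest in neurons, Calb1 in medial epithelium, Calb2 in hair cells, S100a1 in supporting cells and hair cells, and S100b in melanocytes and roof epithelium. Of all wild-type Pvalb UMIs, 76.7% lay in neurons, and of all Calb1 UMIs 65.4% lay in medial epithelium. S100a1 was spread more widely, with 18.8% in hair cells, 18.1% in supporting cells and 29.7% in epithelium that received no name. Captured 3′ tags do not scale with transcript length, but capture can still differ from gene to gene. Over all kept wild-type barcodes Pvalb stood at 92.1 CPM, Calb1 at 86.0, S100a1 at 83.6, S100b at 17.0 and Calb2 at 2.03 CPM. Calb2 was thus the scarcest of the 5, with 115 wild-type and 170 mutant UMIs in all.

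Pvalb (ENSMUSG00000005716) spans chromosome 15 from 78191114 to 78206400 on the minus strand of GRCm38. In wild-type neurons it reached 954.5 CPM (925 to 985, 4009 UMIs) and in mutant neurons 1731 CPM (1667 to 1796, 2815 UMIs). The mutant level was the higher one, with a log2 ratio of mutant to wild type, 1 CPM added to each, of 0.86 (0.76 to 0.96 from the Poisson bounds). The ratio was under 2-fold in the main setting. Over 13 alternative settings it lay between 0.61 and 1.14, past 2-fold in 1. After thinning, 236 of 350 wild-type neurons (67.4%, 62.2 to 72.3) and 57 of 67 mutant neurons (85.1%, 74.3 to 92.6) had a Pvalb UMI. In mesenchyme, which gives the background of the assay, the shares were 0.286% and 0.176% at median depths of 7212.5 and 8880 UMIs.

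The neuron markers differed the same way as Pvalb. The 9 of them summed to 10757 CPM in wild-type and 16325 CPM in mutant neurons, and all 9 were higher in the mutant. Set against 1000 UMIs of these markers, Pvalb had 88.7 UMIs (86.0 to 91.5) in wild-type and 106 (102 to 110) in mutant neurons. Among neurons that were not mixed, 114 wild-type neurons had 1148 CPM and 66 mutant neurons 1751 CPM, a log2 ratio of 0.61. Pvalb was thus still higher in the mutant without those barcodes and per neuron marker UMI, by smaller factors. At finer clustering the neurons fell into a shallower cluster of 270 wild-type and 4 mutant barcodes and a deeper cluster of 81 and 64. Neurons as a class thus differed in make-up between the libraries. The part of this make-up in the Pvalb difference was not tested.

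Pvalb was uneven among wild-type neurons. A neuron held between 0 and 162 Pvalb UMIs with a median of 4, and the 10% of neurons with most UMIs held 49.4% of them. In the mutant, whose neurons were deeper, the median was 43.5 UMIs, the highest 143, and the top 10% held 21.9%. Per 10000 UMIs of a barcode the medians were 7.32 and 18.1 Pvalb UMIs and the highest values 35.2 and 35.6. So scaled, the highest values were alike and the medians apart. Scaling does not even out the larger counting error of the shallower wild-type barcodes. The 267 wild-type neurons with a UMI of Pou4f1, Lypd1, Runx1 or Grm8, genes of a subclass of type I spiral ganglion neurons, had 1018 CPM (986 to 1051). The 83 neurons with none of these had 473 CPM (414 to 538), but they were also shallower, at a median of 4392 against 7229 UMIs, and 80.7% of them carried other lineages against 63.3%. Without those barcodes 98 and 16 neurons remained, at 1190 CPM (1142 to 1239) and 708 CPM (592 to 841). In the mutant 67 of 68 neurons had such a UMI, so the split has no counterpart there.

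Outside neurons Pvalb was next highest in wild-type hair cells, at 227 CPM (203 to 254, 309 UMIs). Epithelium that received no name had 93.1 CPM, supporting cells 87.7, roof epithelium 58.3 and lateral epithelium 28.3 CPM, while glia had 4.62, medial epithelium 1.93 and mesenchyme 1.42 CPM. Per 1000 neuron-marker UMIs in the same barcodes, hair cells had 313 Pvalb UMIs (279 to 350), above the 88.7 of the neurons. Supporting cells had 118 (95.9 to 143), roof epithelium 91.3 (74.0 to 112), unnamed epithelium 86.0 (78.4 to 94.0) and lateral epithelium 70.9 (52.5 to 93.8). The intervals of roof, unnamed and lateral epithelium hold the neuronal value, and that of supporting cells lies just above it. Of these 5 epithelial classes, hair cells stood furthest above the ratio found in neurons. In mutant roof epithelium 6 Pvalb UMIs were left (1.49 CPM), and the neuron markers summed to 24.3 CPM against 638 CPM in the wild-type roof.

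Within wild-type hair cells the 3 most abundant members were higher in barcodes with a UMI of inner hair cell genes. Of these genes, Tbx2 was seen in 46 hair cells, Fgf8 in 26 and Slc17a8 in 2, so the split rests mostly on Tbx2. The 60 barcodes with a UMI of Fgf8, Slc17a8 or Tbx2, genes of inner hair cells, had 319 CPM of Pvalb (277 to 365), and the 64 without had 143 CPM (116 to 174). Calb1 stood at 325 CPM (283 to 372) with and 239 CPM (204 to 278) without such a UMI. S100a1 stood at 764 CPM (698 to 834) and 558 CPM (505 to 616). For all 3 genes the intervals of the 2 sets did not overlap, and the median depths were close, at 9015 and 9417.5 UMIs. Barcodes with other lineages made up 85.0% and 87.5% of the 2 sets. Without them 9 barcodes with and 8 without inner hair cell genes remained, at unequal median depths of 9162 and 19813 UMIs. The order was the same, with 1234 CPM (1019 to 1481) against 65.4 CPM (32.7 to 117) of Pvalb. Calb1 had 343 CPM (235 to 485) against 29.7 CPM (9.66 to 69.4).

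A split on Insm1, Bcl11b and Neurod6, genes of outer hair cells, gave the opposite order. The 45 barcodes with such a UMI had 113 CPM of Pvalb (89.4 to 141), 199 CPM of Calb1 (167 to 235) and 567 CPM of S100a1 (512 to 626). The 79 barcodes without had 345 (302 to 392), 364 (320 to 413) and 749 CPM (685 to 818). Here the barcodes with a UMI were deeper, with a median of 12097 against 7998 UMIs. Calb2 was carried by 24 UMIs in all, 15 of them in the 60 barcodes with an inner hair cell gene. S100b, with 16 UMIs, showed overlapping intervals in both splits.

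**Figure D2:**
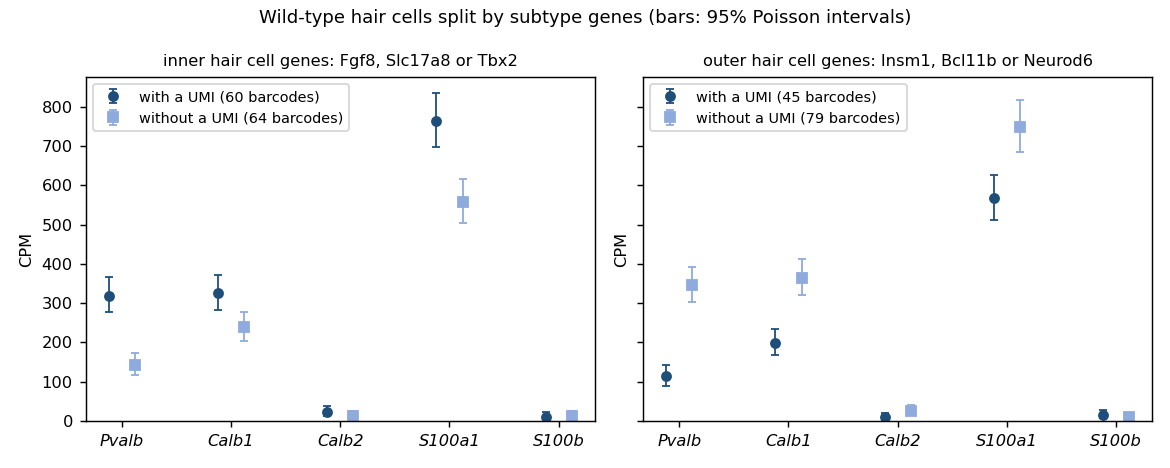
Level of the 5 genes (CPM) in wild-type hair cells with and without a UMI of inner hair cell genes (left) and of outer hair cell genes (right), with 95% Poisson intervals. Pvalb, Calb1 and S100a1 are higher in the 60 barcodes with inner hair cell genes and lower in the 45 with outer hair cell genes.

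Pvalb, Calb1 and S100a1 were each seen in most hair cells, and so often in the same ones. Of 124 wild-type hair cells, 90 held Pvalb (72.6%) and 102 held Calb1 (82.3%). UMIs of both Pvalb and Calb1 were in 77, of Pvalb and S100a1 in 85, and of Calb1 and S100a1 in 96. Calb1 was thus in 85.6% of hair cells with Pvalb, close to its 82.3% of all hair cells. S100a1 was in 94.4% of hair cells with Pvalb and in 94.1% of those with Calb1, close to its 93.5% of all. All 13 barcodes with Calb2 and all 16 with S100b also had S100a1. Whether members shared barcodes more often than the shares over all hair cells give was not tested. At 2000 UMIs per barcode, 54.8% of hair cells had an S100a1 UMI (45.7 to 63.8), 41.1% a Calb1 UMI (32.4 to 50.3) and 29.8% a Pvalb UMI (22.0 to 38.7). The 2 mutant barcodes named hair cells held 39 S100a1, 5 S100b, 2 Calb2, 1 Pvalb and 0 Calb1 UMIs.

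Hair cell levels differed with the barcodes counted. Without all barcodes over the limit for other lineages, 17 hair cells remained, in which the hair cell factor Pou4f3 stood at 1045 CPM against 320 CPM over all 124. In these 17, S100a1 reached 1596 CPM (1446 to 1757), Pvalb 482 CPM (402 to 574) and Calb2 72.7 CPM (43.8 to 114). All 3 were thus higher than over all hair cells. Calb1 went the other way and stood at 142 CPM (99.7 to 195) against 280 CPM over all hair cells. Epyc, a matrix gene of the medial epithelium, was lower there too, at 26.8 CPM against 1160 CPM over all hair cells. Over all hair cells there were 242 Calb1 UMIs per 1000 Epyc UMIs (218 to 267), in medial epithelium 269 (260 to 278), and in the 17 barcodes 37 Calb1 UMIs beside 7 of Epyc. With Dcn and Lum not counted as foreign, 62 hair cells remained, with 291 CPM of Calb1 and 1050 CPM of Epyc.

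Calb1 (ENSMUSG00000028222) spans chromosome 4 from 15881264 to 15908064 on the plus strand. Calbindin is the buffer of the group that led outside the sensory cells: wild-type medial epithelium held 561 CPM (542 to 581, 3192 UMIs) and mutant medial epithelium 107 CPM (100 to 114, 1061 UMIs). The log2 ratio was -2.38 (-2.52 to -2.25), and 0.0565% of the 14163 genes compared in that class had a lower one. It was at least 2-fold lower in the mutant in all 13 alternatives, with ratios from -2.77 to -1.18. With mixed barcodes left out, 54 wild-type barcodes had 253 CPM (213 to 298) and 138 mutant barcodes 108 CPM (93.3 to 125), a log2 ratio of -1.22. Of the 207 barcodes of the wild-type sub-cluster richest in Calb1, 3 passed that limit. With Dcn and Lum not counted as foreign the levels were 593 and 108 CPM and the ratio -2.45. A Calb1 UMI was seen in 246 of 480 wild-type barcodes (51.2%, 46.7 to 55.8) and in 90 of 580 mutant barcodes (15.5%, 12.7 to 18.7) at 2000 UMIs. In mesenchyme the shares were 0.794% and 0.196%, and in glia 0.229% and 0.223%.

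The medial class was made of different sub-clusters in the 2 libraries. Sub-cluster 2, led by Nr2e1 and Epyc, held 207 wild-type and 0 mutant barcodes and had the most Calb1, 987 CPM (947 to 1027). Sub-cluster 3, led by Matn1 and Otoa, held 122 wild-type barcodes and 1 mutant barcode and had 267 CPM (239 to 297). The sub-clusters with most wild-type barcodes were thus nearly absent from the mutant library, and the value of the class as a whole carries that difference in make-up.

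Calb1 was also lower in the mutant within each of the 3 medial sub-clusters found in both libraries. Sub-cluster 16, led by Msc and Serpinb5, had 328 CPM (283 to 379) in 45 wild-type barcodes and 92.4 CPM (82.4 to 103) in 210 mutant barcodes. Sub-cluster 13, led by Msc and cell cycle genes, had 131 CPM (97.9 to 171) and 59.1 CPM (50.8 to 68.5). Sub-cluster 4, led by Tmprss4 and Otoa, had 241 CPM (213 to 273) and 160 CPM (147 to 174). The intervals did not overlap in any of the 3, and the log2 ratios were -1.82, -1.13 and -0.59. Over the 3 together the ratio was -1.18, against -2.38 for the whole class. Leaving out mixed barcodes, Calb1 was again lower in the mutant in all 3, but on 7, 4 and 45 wild-type UMIs the intervals overlapped in each.

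**Figure D3:**
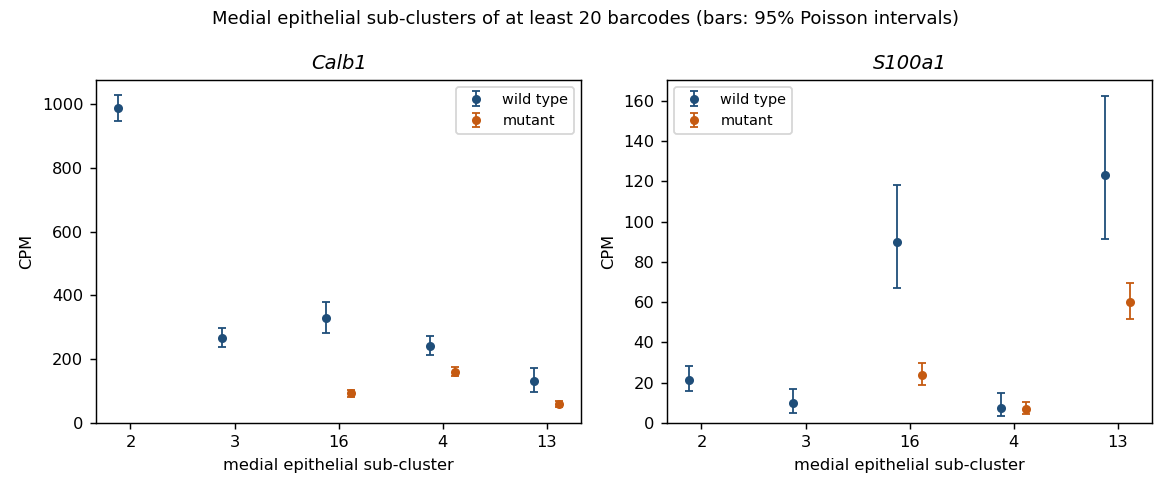
Calb1 (left) and S100a1 (right) in the medial epithelial sub-clusters of at least 20 barcodes (CPM, linear axes), with 95% Poisson intervals, wild type in blue and mutant in orange. Calb1 is lower in the mutant in all 3 shared sub-clusters, and sub-clusters 2 and 3 have wild-type points only.

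The 9 medial markers summed to 4513 CPM in wild-type and 2893 CPM in mutant medial epithelium, with 5 lower and 4 higher in the mutant. Epyc stood at 2088 and 443 CPM and Crabp1, a retinoic acid binding protein gene, at 456 and 59.2 CPM. Among the 4 higher ones, Tecta had 787 and 1099 CPM and Tectb 186 and 448 CPM, both genes of tectorial membrane proteins. Per 1000 medial marker UMIs Calb1 had 124 UMIs (120 to 129) and 36.9 UMIs (34.7 to 39.2). Per 1000 Epyc UMIs it had 269 (260 to 278) and 241 (227 to 256), so that Calb1 and Epyc differed between the libraries by nearly the same factor over the whole class. Within sub-clusters they did not keep 1 ratio: it was 756 and 460 in sub-cluster 16, 469 and 616 in sub-cluster 13, and 221 and 168 in sub-cluster 4. The part of the class make-up in the Calb1 difference was not tested beyond the sub-clusters.

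Calb1 in neurons was lower than in medial epithelium, and its intervals overlapped between genotypes. Wild-type neurons had 62.9 CPM (55.5 to 70.9, 264 UMIs) and mutant neurons 70.7 CPM (58.4 to 84.9, 115 UMIs), a log2 ratio of 0.17 (-0.28 to 0.60). It was 0.48 without mixed barcodes, from 47.2 CPM (38.4 to 57.4) and 66.1 CPM (53.9 to 80.2). The mutant neurons held 1 Epyc UMI beside their 115 Calb1 UMIs. Of the neurons with Calb1, 90.4% in wild-type and 90.6% in mutant neurons also had Pvalb (123 and 29 barcodes). These are close to the 87.4% and 89.7% of all neurons that had Pvalb. In the mutant, the 35 neurons with a UMI of Neurod1, a factor of young neurons, had 104 CPM of Calb1 (83.2 to 128) and the 33 without had 35.5 CPM (23.6 to 51.3), at median depths of 22859 and 23024 UMIs. Few barcodes carried these levels: the median mutant neuron had 0 Calb1 UMIs, the highest 18, and the 10% with most UMIs held 64.3% of them. In the wild type the same split gave 72.5 CPM (58.6 to 88.7) in 64 neurons and 58.6 CPM (50.1 to 68.0) in 286, with overlapping intervals but unequal depths of 14660 and 4904.5 UMIs. After mixed barcodes were left out, 30 and 84 wild-type neurons had 78.5 CPM (57.9 to 104) and 34.5 CPM (25.7 to 45.2).

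Elsewhere Calb1 stood at 150 CPM in wild-type lateral epithelium, with 258 UMIs per 1000 Epyc UMIs, close to the ratio of medial epithelium. In mesenchyme it had 4.11 CPM (3.37 to 4.97) in wild-type and 1.18 CPM (0.90 to 1.53) in mutant barcodes, a log2 ratio of -1.23. Calb1 was lower in the mutant in all 11 mesenchymal clusters. Epyc in mesenchyme stood at 26.0 and 7.30 CPM, and Calb1 per 1000 Epyc UMIs at 158 (130 to 191) and 162 (123 to 209). Epyc was thus lower by a like factor, and with 5 CPM added in place of 1 the Calb1 ratio was -0.56, under 2-fold. Unnamed mutant clusters, mostly shallow barcodes with a median of 1660 UMIs, had 96.7 CPM of Calb1 (81.4 to 114).

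Calb2 (ENSMUSG00000003657) spans chromosome 8 from 110137502 to 110168210 on the minus strand. Calretinin transcripts were rare at this age. The highest wild-type level was 17.7 CPM in hair cells (11.3 to 26.3, 24 UMIs). Supporting cells followed with 5.16 CPM (1.89 to 11.2, 6 UMIs), an interval that ends just below that of the hair cells. Erythroid cells had 4.77 CPM (7 UMIs) and neurons 4.76 CPM (2.91 to 7.35, 20 UMIs), both overlapping the supporting cells. Mutant neurons held 0 Calb2 UMIs, which allows up to 1.84 CPM (3 UMIs over the class). The wild-type value of 4.76 CPM was 2.58 times that limit, its own counting error left aside. With the Poisson bounds of both libraries the log2 ratio was -2.53 (-3.06 to -0.26). Of the 20 wild-type UMIs, 13 lay in the 114 neurons without other lineages (6.13 CPM). The 20 wild-type UMIs lay in 11 neurons with Pvalb and 1 without, where 306 of all 350 neurons had Pvalb. Medial epithelium held 0 wild-type UMIs and 1 mutant UMI, and glia held none in either library.

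Mesenchyme held 95.9% of the mutant Calb2 UMIs. Its level was higher in the mutant, at 1.38 CPM (0.97 to 1.92, 36 UMIs) and 3.27 CPM (2.79 to 3.81, 163 UMIs), a log2 ratio of 0.84 (0.38 to 1.29). It was lower in the mutant in 1 of 11 mesenchymal clusters and absent from both libraries in 2, and 99.1% of the 16676 genes compared in mesenchyme had a lower ratio. After thinning, 0.413% of wild-type (0.220 to 0.705) and 0.607% of mutant barcodes (0.413 to 0.861) had a UMI, and these intervals overlap. The level was low in both libraries, with no more than 6.05 CPM in any mesenchymal cluster.

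S100a1 (ENSMUSG00000044080) spans chromosome 3 from 90511034 to 90514392 on the minus strand, inside the cluster of S100 genes. It was highest in the sensory epithelium. Wild-type supporting cells had 737 CPM (688 to 788, 857 UMIs) and hair cells 657 CPM (614 to 701, 893 UMIs), and these intervals overlap. At 2000 UMIs, 74.2% of supporting cells (63.8 to 82.9) had an S100a1 UMI, against 1.52% of mesenchyme. All 50 supporting cells with Pvalb and all 33 with Calb1 also had S100a1, as did 88 of all 89 supporting cells.

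An epithelial sub-cluster that stayed unnamed, because medial and supporting cell markers scored close, lay in the same range. Led by Gjb6, a gap junction gene, it had 677 CPM (608 to 751) in 41 wild-type and 487 CPM (445 to 533) in 85 mutant barcodes. A sub-cluster led by Tac1 and Fst, unnamed for close lateral and supporting cell scores, had 359 CPM (340 to 379) in 206 mutant barcodes. Roof epithelium had 211 CPM (190 to 235) and 62.9 CPM (55.4 to 71.1), from different sub-clusters in the 2 libraries. Melanocytes had 191 CPM (154 to 236) and 198 CPM (153 to 251), which overlap. Wild-type lateral epithelium had 157 CPM, macrophages 80.2 and 58.7 CPM, and the unnamed mutant clusters 217 CPM.

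In medial epithelium S100a1 gave nearly equal sums, 30.3 CPM (25.9 to 35.1) and 28.6 CPM (25.4 to 32.1), with a log2 ratio of -0.08. It was lower in the mutant in all 3 shared sub-clusters, with intervals apart in 2: 90.0 CPM (67.0 to 118) and 23.6 CPM (18.7 to 29.5) in sub-cluster 16, and 123 CPM (91.5 to 162) and 60.1 CPM (51.7 to 69.5) in sub-cluster 13. In sub-cluster 4 it was 7.42 and 6.92 CPM, with overlapping intervals, and the wild-type sub-clusters 2 and 3 were also low, at 21.3 and 9.67 CPM. The equal sums of the class thus combine lower levels within sub-clusters with more barcodes from the sub-clusters richer in S100a1. Over alternatives the sign of the class ratio changed, from -0.87 to 0.81, and it kept its sign in 9 of 13.

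Levels in neurons, glia and mesenchyme were low. Neurons had 17.4 CPM (13.6 to 21.8, 73 UMIs) in wild-type and 6.15 CPM (2.95 to 11.3, 10 UMIs) in mutant barcodes, a log2 ratio of -1.36 (-2.53 to -0.25). Without mixed barcodes it was -0.70 and no longer 2-fold. The 83 wild-type neurons without a UMI of the type I subclass genes had 61.2 CPM (41.3 to 87.4), above the 11.6 CPM (8.39 to 15.6) of the other 267. In barcodes that were not mixed these were 21.8 CPM (4 UMIs) and 6.71 CPM (13 UMIs), with overlapping intervals. Glia had 31.3 CPM (25.3 to 38.3) and 35.4 CPM (29.9 to 41.6). In mesenchyme the log2 ratio was -0.09 (-0.40 to 0.23).

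**Figure D4:**
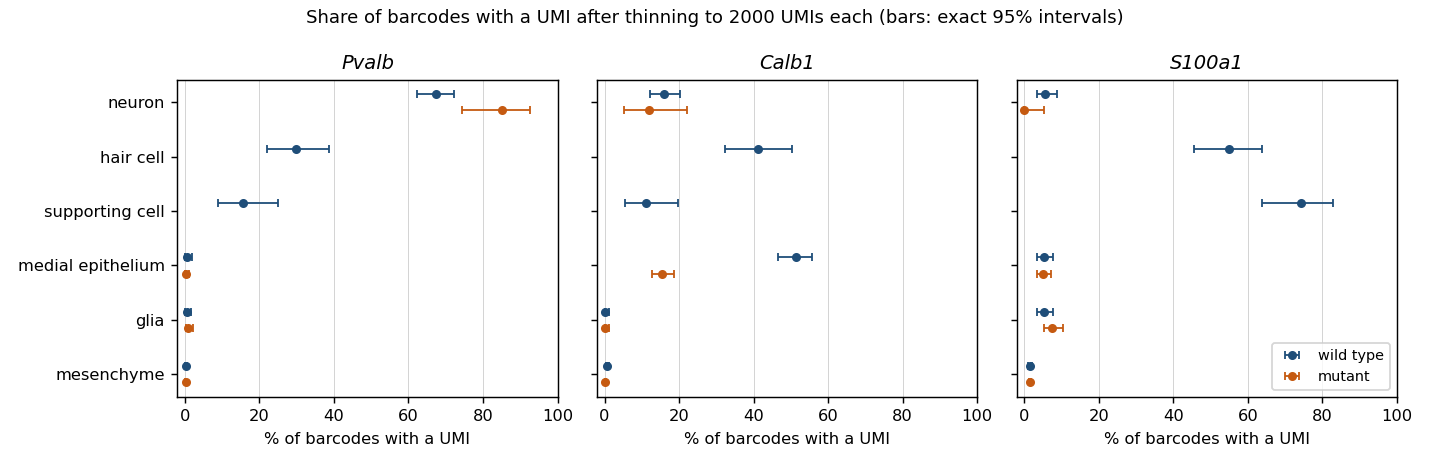
Share of barcodes with a UMI of Pvalb, Calb1 and S100a1 (percent) in 6 classes after thinning each barcode to 2000 UMIs, with exact 95% intervals. Pvalb marks 67.4% of wild-type and 85.1% of mutant neurons, Calb1 51.2% and 15.5% of medial epithelium, and S100a1 74.2% of wild-type supporting cells; glia and mesenchyme stay low for Pvalb and Calb1.

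S100b (ENSMUSG00000033208) spans chromosome 10 from 76253853 to 76261159 on the plus strand. Although it is a common glial marker, glia did not lead at this age. Wild-type melanocytes had 90.3 CPM (65.1 to 122) and roof epithelium 79.0 CPM (66.0 to 93.8), which overlap, followed by supporting cells with 32.7 CPM (23.1 to 44.8) and glia with 31.3 CPM (25.3 to 38.3). Glia of the mutant had 25.7 CPM (21.0 to 31.0), a log2 ratio of -0.28 (-0.83 to 0.28). Per 1000 glial marker UMIs S100b had 3.17 UMIs (2.56 to 3.87) and 3.38 UMIs (2.77 to 4.08). A UMI was seen in 6.88% of wild-type (4.69 to 9.68) and 4.69% of mutant glia (2.92 to 7.08) after thinning.

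The roof level of S100b came from 1 wild-type sub-cluster of 60 barcodes, which had 172 CPM (142 to 207) and was led by Dct, Pmel, Esrrb and Enpep. Esrrb and Enpep are roof markers, while Dct and Pmel are pigment genes of melanocytes, so genes of both kinds led this sub-cluster. The S100b interval of wild-type melanocytes, 65.1 to 122 CPM, lies below that of the sub-cluster. The part of pigment cell transcripts in its S100b level was not tested. The other large wild-type roof sub-cluster had 13 S100b UMIs in 88 barcodes (8.78 to 28.2 CPM), and mutant roof epithelium 11.9 CPM (8.77 to 15.8). Mesenchyme had equal sums, 14.6 CPM (13.2 to 16.2) and 15.4 CPM (14.3 to 16.6), but the clusters differed widely. A cluster led by Penk, Col8a1 and Gdf10 had 63.4 CPM (54.2 to 73.7) in 376 wild-type and 83.8 CPM (76.1 to 92.1) in 653 mutant barcodes, against medians over 11 clusters of 8.11 and 6.32 CPM.

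In neurons S100b stood at 11.2 CPM (8.22 to 14.9, 47 UMIs) and 18.4 CPM (12.4 to 26.3, 30 UMIs), with a log2 ratio of 0.67 (-0.24 to 1.57). Without mixed barcodes the ratio was 1.26, past 2-fold. Medial epithelium had 4.22 and 1.91 CPM, with overlapping intervals.

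By genotype, few members were 2-fold or more apart in a class, and the shares of all genes that were give the scale. In neurons 2 of 5 members were (Calb2 and S100a1, both lower in the mutant), against 14.0% of all genes, 11.5% lower and 2.44% higher. In medial epithelium 1 of 4 was (Calb1, lower), against 6.19% of all genes, 2.17% lower and 4.02% higher. In mesenchyme 1 of 5 was (Calb1, lower), against 1.08% of all genes, 0.630% lower and 0.450% higher. In glia 0 of 4 were, against 3.63% of all genes, 1.47% lower and 2.16% higher. The median log2 ratio over all genes was -0.02 in neurons, 0.07 in medial epithelium, 0.01 in glia and 0.04 in mesenchyme. Pvalb in neurons, at 0.86, had a higher ratio than 96.2% of genes in that class. Without mixed neurons S100a1 was no longer 2-fold apart (-0.70), while S100b was, higher in the mutant (1.26).

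**Figure D5:**
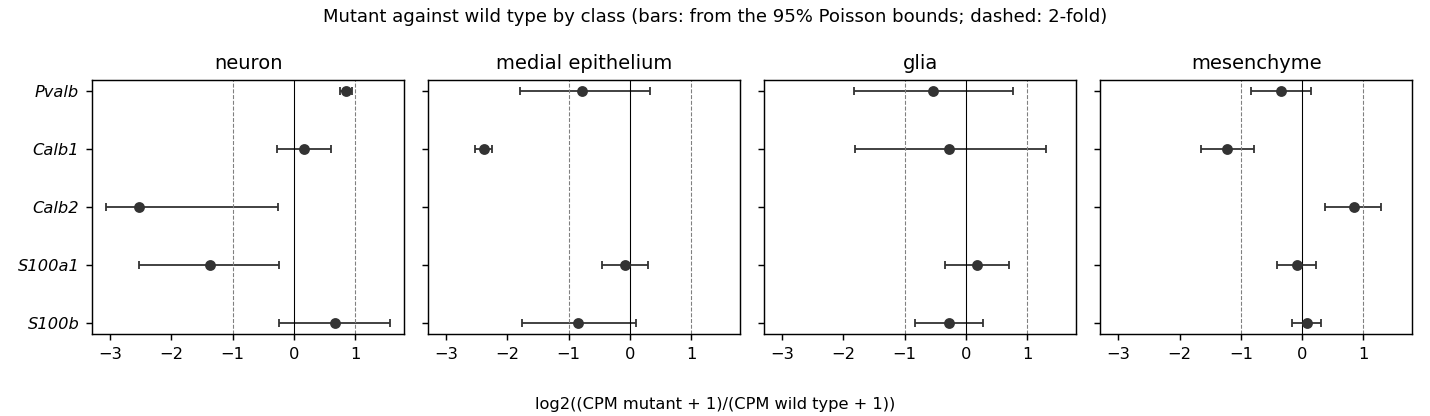
Log2 ratio of mutant to wild type, 1 CPM added to each, for each member with at least 10 UMIs in 4 classes; bars are set by the 95% Poisson bounds and dashed lines mark 2-fold. Calb1 in medial epithelium (-2.38) is the lowest ratio with a narrow bar, and no bar in glia leaves 0.

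Other calcium genes were read from 4 lists. Of 16 further S100 genes including oncomodulin, 5 had at least 10 UMIs in neurons, of which 0 were 2-fold higher and 1 lower, with a median log2 ratio of -0.58. S100a10, which binds annexin A2, was the highest of them in wild-type neurons at 684 CPM and had 778 CPM in the mutant. S100a11 was the lowest ratio in both neurons, 122 and 13.5 CPM, and medial epithelium, 377 and 184 CPM, where it was the 1 of 7 past 2-fold (median -0.47). S100a11 also stood at 375 CPM in wild-type mesenchyme, and mesenchyme markers in neurons summed to 850 CPM in wild-type and 89.8 CPM in mutant barcodes. When mixed barcodes were left out it had 78 wild-type UMIs (36.8 CPM) and 20 mutant UMIs in neurons, the 1 of 3 past 2-fold. Of all 11599 genes compared in neurons that were not mixed, 322 were 2-fold higher and 642 lower. These give the scale for the neuron counts without mixed barcodes here and below. In glia 1 of 7 was higher, S100a4, at 2.31 and 6.18 CPM, and the median was 0.15. In mesenchyme 0 of 8 were 2-fold apart. In hair cells S100a13 led with 349 CPM.

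Of 43 EF-hand calcium sensors (calmodulins, visinin-like and related proteins), 26 were compared in neurons, of which 1 was higher and 5 lower in the mutant, with a median of 0.00. Calm2 led in wild-type neurons at 1418 CPM. Necab2 had the highest ratio in neurons, 1.31 on the log2 scale, while Necab1 had 108 wild-type UMIs and 1 mutant UMI. Over barcodes that were not mixed, 23 sensors were compared, 1 higher and 2 lower, and Necab1 had 89 UMIs and 1 UMI. In medial epithelium 0 of 23 and in mesenchyme 0 of 32 were 2-fold apart, and in glia 1 of 20 was, Vsnl1, with 2 wild-type and 59 mutant UMIs. Cib2, which hair cells need for mechanotransduction, had 413 CPM in wild-type hair cells, and in medial epithelium 26.6 and 14.8 CPM.

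All 14 EF-hand proteins of the endoplasmic reticulum and Golgi were compared in the 4 classes. In neurons 6 were lower and 0 higher, with a median of -0.84, and in medial epithelium, glia and mesenchyme 0 were 2-fold apart. Sparc, a secreted matrix protein, had the lowest ratio in neurons, at 347 and 30.7 CPM. Sparc stood at 1052 CPM in wild-type mesenchyme. Without neurons carrying other lineages it had 57.1 and 22.0 CPM, and 2 of 14 were lower, with a median of -0.48.

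Of 39 calcium pumps, exchangers and channels, 35 were compared in neurons, with 0 higher and 4 lower and a median of 0.00. The plasma membrane pump Atp2b1 led in all 5 classes, from 161 CPM in glia to 846 CPM in medial epithelium. Cacna1d, the L-type channel of hair cells, stood at 70.5 and 29.5 CPM in neurons and at 18.3 and 8.38 CPM in mesenchyme, where it was the 1 of 37 past 2-fold. Once mixed barcodes were left out, 2 of 32 were lower in neurons, Cacna1d among them at 99.5 and 27.2 CPM. In medial epithelium 1 of 33 was higher, Cacna2d3 at 2.29 and 6.95 CPM, and 3 were lower, among them the inositol trisphosphate receptor gene Itpr2 at 48.5 and 18.6 CPM. In glia 0 of 22 were 2-fold apart.

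The genes most like each member were taken by Pearson's r of log2(CPM + 1) over 33 wild-type clusters and sub-clusters, which share 1 library and its free RNA. For Pvalb these were the neuronal genes Eef1a2 (r = 0.96), Pcsk1n (0.96), Stmn3 (0.95), Ina (0.95) and Stmn4 (0.94). For Calb1 they included 2410124H12Rik (0.93), Epn3 (0.90), 3110039M20Rik (0.90) and Epyc (0.89). Calb2 came out closest to Lrrc10b (0.71) and, at 0.64 to 0.66, to Unc13a, Chrna9, Grxcr1 and Sstr2, of which Chrna9, Grxcr1 and Sstr2 were highest in the hair cell sub-cluster. S100a1 was closest to Mettl24 (0.82), Tmprss3, Sdf2l1, Plet1 and Tectb (0.78), and S100b to Meis2 (0.75), Dclk1, Col14a1, Insc and Cck (0.67).

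Over the 30 mutant clusters the likeness held for some members more than for others. The 5 genes named for Pvalb kept r between 0.75 and 0.90, and those named for Calb1 between 0.64 and 0.89. Of those named for Calb2, which had almost no UMIs outside mesenchyme in the mutant, none of the 4 that gave a value exceeded 0.11. Among the members themselves the closest pair in the wild type was Pvalb and S100a1 (r = 0.58), and in the mutant that pair stood at -0.10.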

How the data were processed

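Dissociated cochleae were measured by droplet single-cell RNA sequencing. The values are counts of UMIs, not normalized, which the authors deposited as 1 matrix of genes by barcodes for each library after running Cell Ranger. The submitters' processing notes name version 6.0.0 and mm10 for both libraries, whereas the file headers give 6.0.0 for the wild type and 5.0.1 for the mutant. The labels also differ on the kit version between the libraries. Whether that moves with genotype differences was not tested.

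Barcodes with at least 1000 UMIs, 500 genes and at most 10% mitochondrial UMIs were kept (6440 wild type, 9373 mutant). The doublet caller in scanpy 1.11.5 marked 0 barcodes, so those with the highest scores, 0.8% per 1000 barcodes, were removed instead (332 and 703). Both libraries were clustered together on 2000 variable genes, 30 components and 15 neighbours (igraph 0.11.9, Leiden resolution 1), with the members and the other calcium genes left out, and epithelium was clustered again. A cluster was named when at least 3 markers stood at 10 CPM or more. It stayed unnamed when a second name scored at least 0.8 of the first, or when its leading genes were of another class. A median depth under 0.333 of its library's also left it unnamed, unless its 10 leading genes held a marker of that name. Shallow clusters that kept a name include a mesenchymal cluster of 28 wild-type and 739 mutant barcodes, at 0.209 of the median depth. A roof sub-cluster of 3 and 204 barcodes stood at 0.214 of the epithelial median. This naming rule was revised after the data were seen.

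UMIs were summed per class and library and scaled to CPM. Genes with at least 10 UMIs over both libraries, in classes of at least 20 barcodes in each, were compared as log2((mutant CPM + 1)/(wild-type CPM + 1)). Intervals at 95% and the upper limit for a count of 0 (3 UMIs) cover counting error only, computed with scipy 1.17.1. The summing and ratio steps were tested on simulated data. Genes named from each calcium list are the one with the highest wild-type CPM and, among those with at least 30 UMIs, the highest and the lowest ratio. Other names are the members, Ptch1 and Gli1, markers and subtype genes, and the 5 genes most like each member among those with at least 50 UMIs, over clusters of at least 30 barcodes. Crabp1, Epyc, Necab1 and similar genes printed beside a member come from these lists. The members, lists and markers were chosen with earlier results of these data known. Coordinates are from GENCODE on GRCm38. Alternatives changed the added CPM, the UMI minimum, the doublet step, the resolution, the way classes were assigned and the barcodes kept. Those on cluster names, shared medial sub-clusters and mixed barcodes without Dcn and Lum, or over either limit (5 foreign or 20 haemoglobin UMIs per 10000), were chosen after seeing the data, as were the calcium lists, subsets and medial sub-clusters without mixed barcodes. Some genes that this rule names are not reported here.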

Additional observations from a re-analysis of the deposited data

Results flagged for a closer look

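Of the mutant barcodes, 2339 had under 1000 UMIs and entered no comparison, while no wild-type barcode was that shallow. These barcodes held 1655807 UMIs, and 4 of the 5 members were above the 3 UMIs that a count of 0 allows. S100a1 stood at 79.7 CPM there (66.7 to 94.5, 132 UMIs) and Calb1 at 41.1 CPM (31.9 to 52.1, 68 UMIs). S100b stood at 15.7 CPM (10.3 to 23.0, 26 UMIs) and Pvalb at 7.85 CPM (4.18 to 13.4, 13 UMIs). Calb2 had 3 UMIs. The mutant totals of the report leave these transcripts out.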

How the results depend on the processing

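Over 13 alternatives, 18 genotype ratios of the members gave 219 values, of which 210 kept their sign and 190 moved by less than counting error. Calb1 in medial epithelium stayed at least 2-fold lower in all 13, at -1.22 without mixed barcodes. The number of members 2-fold apart was 2 in neurons, and 1 with 5 CPM added, with at least 50 UMIs or with doublets kept. Which members these were also changed. Without mixed neurons S100a1 fell under 2-fold (-0.70), and S100b passed it, higher in the mutant (1.26). In mesenchyme the number was 1, and 0 with 5 CPM added, 3 at Leiden resolution 2 and 3 with classes assigned by marker UMIs per barcode. That last assignment also gave 3 in medial epithelium (main value 1) and 2 in glia (main value 0). The cause was not tested. Pvalb in neurons ranged from 0.61 to 1.14, past 2-fold in 1 alternative. Hair cells gave no genotype value under any alternative, with 2 mutant barcodes (4 with doublets kept). No paired analysis was possible because each genotype has 1 library. Calb2, with 115 wild-type UMIs in all, rests on few counts in every class.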
